A study of Mus musculus with 8 samples.

Results

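The sirtuin family, Sirt1 to Sirt7, was examined in the RNA of the mouse cochlea. Members were the count-table entries whose symbol is Sirt1, Sirt2, Sirt3, Sirt4, Sirt5, Sirt6 or Sirt7. All 7 were found among the 47628 entries that name a gene, and all 7 passed the minimum mean count for testing. The 3 mitochondrial members (Sirt3, Sirt4 and Sirt5) were set beside the 4 members of the nucleus and cytosol (Sirt1, Sirt2, Sirt6 and Sirt7).

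RNA seq was available for cochleae of 4 WT mice, numbered 4, 5, 6 and 8, and of 4 heterozygous Opa1+/- littermates, called here mice 2, 7, A and B, all at p21 and without treatment. A and B stand for the animals with 3-digit numbers in the labels, in the order of those numbers. The mice had a background of 129 Sv/Pas and C57BL/6 J, mixed, and each library came from 1 animal. The Opa1+/- mice carry a knock-in of the human OPA1 delTTAG mutation in every cell, so that no promoter or Cre restricts it, and homozygotes, which die before birth, were not part of the comparison. The RNA was from whole cochleae, in which fewer cells of a type and less RNA per cell cannot be told apart.

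Sirtuins remove acetyl groups, or other acyl groups, from lysines of proteins and use up a molecule of NAD in each reaction, which ties their activity to the NAD supply of the cell. Sirt3 is the main deacetylase of the mitochondrial matrix, and among the proteins it acts on is Opa1 itself, the GTPase that fuses inner mitochondrial membranes. In the cochlea, Sirt3 is known from work on hearing loss of ageing, in which caloric restriction protects hair cells and spiral ganglion neurons through Sirt3 and the mitochondrial isocitrate dehydrogenase Idh2. The study followed Sirt3 as a protein. The question asked here of the counts was whether the RNA of Sirt3 or of any other member differed between genotypes at p21.

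The genes lie on 5 chromosomes of GRCm38 (GENCODE vM21 annotation) and are all protein-coding. Sirt3, on the minus strand at chr7:140863666-140882309, overlaps at its 5′ end Psmd13, a proteasome subunit read from the opposite strand, with which it shares 342 annotated exon bases. It shares a further 418 exon bases with Ric8a, which the count tables list under the older symbol Ric8. Sirt4 (chr5:115478010-115484725, minus strand) and Sirt5 (chr13:43365496-43395203, plus strand) overlap no other annotated gene. Of the nuclear and cytosolic members, Sirt1 lies at chr10:63319005-63381704 and Sirt6 at chr10:81621785-81627797, both on the minus strand. Sirt2 lies at chr7:28766735-28788661 on the plus strand and Sirt7 at chr11:120618372-120625240 on the minus strand. Sirt1 overlaps the antisense gene Gm16145 over 65 exon bases, for which no mouse had a count, and Sirt2 overlaps Nfkbib, an inhibitor of NF-kB on the opposite strand, over 42 (adjusted p = 0.756 for Nfkbib, edgeR).

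Promoter windows from RefSeq (GRCm38.p6), which run from 250 bases before to 50 bases after a start, were found for all 7 genes, 9 windows in all. Sirt3 and Sirt6 had more than 1. The GC content of the windows ran from 50% for Sirt2 to 79% for Sirt1, against a median of 52.7% and quartiles of 45.7% and 61.7% over 32851 windows of the same length. Every window reaches into annotated exons. Both windows of Sirt3 do so over all of their 300 bases, because of exons of Sirt3 or Psmd13, and so does the window of Sirt7. The start sites of Sirt3 and Psmd13, at 140882309 and 140882394 on chromosome 7, are 85 bases apart on opposite strands, and their windows share 184 bases. The stretches of the Sirt1 and Sirt5 windows that precede the first annotated exon base within the window are shown, because these members had the largest fitted genotype differences of the family and because no exon is annotated in them. The Sirt1 window belongs to a RefSeq start 42669 bases inside the GENCODE gene, whose annotated 5′ end is further upstream. Capitals mark matches to the motifs searched, namely the GC box and the E-box in Sirt1 (chr10:63339051-63339285, minus strand) and the CCAAT box in Sirt5 (chr13:43365285-43365495, plus strand), both printed 5′ to 3′.
Sirt1: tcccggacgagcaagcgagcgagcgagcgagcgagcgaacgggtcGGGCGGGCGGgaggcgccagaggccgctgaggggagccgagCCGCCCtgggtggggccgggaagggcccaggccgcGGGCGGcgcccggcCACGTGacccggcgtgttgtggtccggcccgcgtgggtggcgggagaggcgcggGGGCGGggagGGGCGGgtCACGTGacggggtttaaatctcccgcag
Sirt5: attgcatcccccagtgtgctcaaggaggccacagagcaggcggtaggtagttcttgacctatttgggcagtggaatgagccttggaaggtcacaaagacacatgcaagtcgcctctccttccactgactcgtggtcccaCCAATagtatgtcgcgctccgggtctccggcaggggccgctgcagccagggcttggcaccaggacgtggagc

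The GC box (GGGCGG, either strand) was in 6 of the 9 windows, 1 for each gene but Sirt4, and in 35.7% of all windows. The Sirt1 window held 7 matches, of which those at positions 46 and 50 overlap, counted from 1 at the 5′ end of the window. Among the members, the E-box (CACGTG) was found only in the Sirt1 window, at positions 136 and 208, and in 7.15% of all windows. The CCAAT box (CCAAT, either strand) was in 3 of the 9 windows, those of Sirt2, Sirt5 and 1 of Sirt3, and in 37.4% of all windows. No window of a member held the TATA box (TATAAA), an element of the estrogen-related receptors (TCAAGGTCA) or a FOXO element (TGTTTAC), each searched on both strands, which were in 13.6%, 0.423% and 3.65% of all windows. These matches describe letters in the windows and are not binding sites.

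The 8 libraries held 15978051 to 20828030 counts on named genes, of which 3416 to 4600 per mouse fell on the 7 sirtuins. Levels are given as CPM, counts divided by the scaled library size, each as mean ± SD with n = 4. Opa1 checked the genotype labels in every mouse, with 119.8 ± 6.56 CPM among WT animals against 65.5 ± 4.28 CPM among heterozygotes, every one of which was below every WT animal. Its log2 fold change was -0.87 with a standard error of 0.0684 (adjusted p = 0.00526, quasi-likelihood test of edgeR, Benjamini-Hochberg method). Genes of hair cells, spiral ganglion neurons, Schwann cells and stria vascularis were all detected. Libraries differed in blood, marrow and muscle RNA. The summed level of 9 erythroid genes was 7783 to 21285 CPM in WT mice and 15114 to 24833 CPM in Opa1+/- mice, with WT mouse 4 and Opa1+/- mouse B highest in their groups, and the same mice led their groups in 10 neutrophil and marrow genes, at 1411 and 1167 CPM. The summed level of 8 skeletal muscle genes ran from 16.5 CPM in Opa1+/- mouse B to 2063.5 CPM in WT mouse 6. No gene of these 3 lists was at 0 in all mice, and none of the 3 sums passed an exact two-sided permutation test between genotypes (p = 0.171 for erythroid genes, 0.714 for skeletal muscle genes and a higher p for neutrophil and marrow genes). By gene, 9 of 9 erythroid genes and 9 of 9 Schwann cell and myelin genes had a positive log2 fold change in Opa1+/- mice. It was negative for 8 of 8 muscle genes and 7 of 8 genes of the stria vascularis. None of these genes passed the adjusted threshold in edgeR or DESeq2, which 0.0258% and 0.119% of all genes tested did. An unadjusted p under 0.05 was reached by 1 erythroid and 1 myelin gene, and by 6.7% of all genes. Over all genes, 9506 log2 fold changes were positive and 9860 negative.

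None of the 7 sirtuins passed the test of a genotype difference over all genes. At an adjusted p under 0.05 in edgeR's quasi-likelihood test, 0 of 7 members were called, against 5 of the 19366 genes tested, or 0.0258%. An unadjusted p under 0.05 was reached by 0 of 7 members and by 6.7% of all genes. DESeq2's Wald test called 0 of 7 members and 0.119% of all genes at the same adjusted threshold. The WT and Opa1+/- mice overlapped in the level of each of the 7 members, whereas 4.29% of all genes had groups that did not overlap. With backgrounds this low, a family of 7 genes would hold few or no calls at the rate of the whole table, so that the count of 0 says little about the sirtuins as a family, and the intervals of each member carry more.

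**Figure D1:**
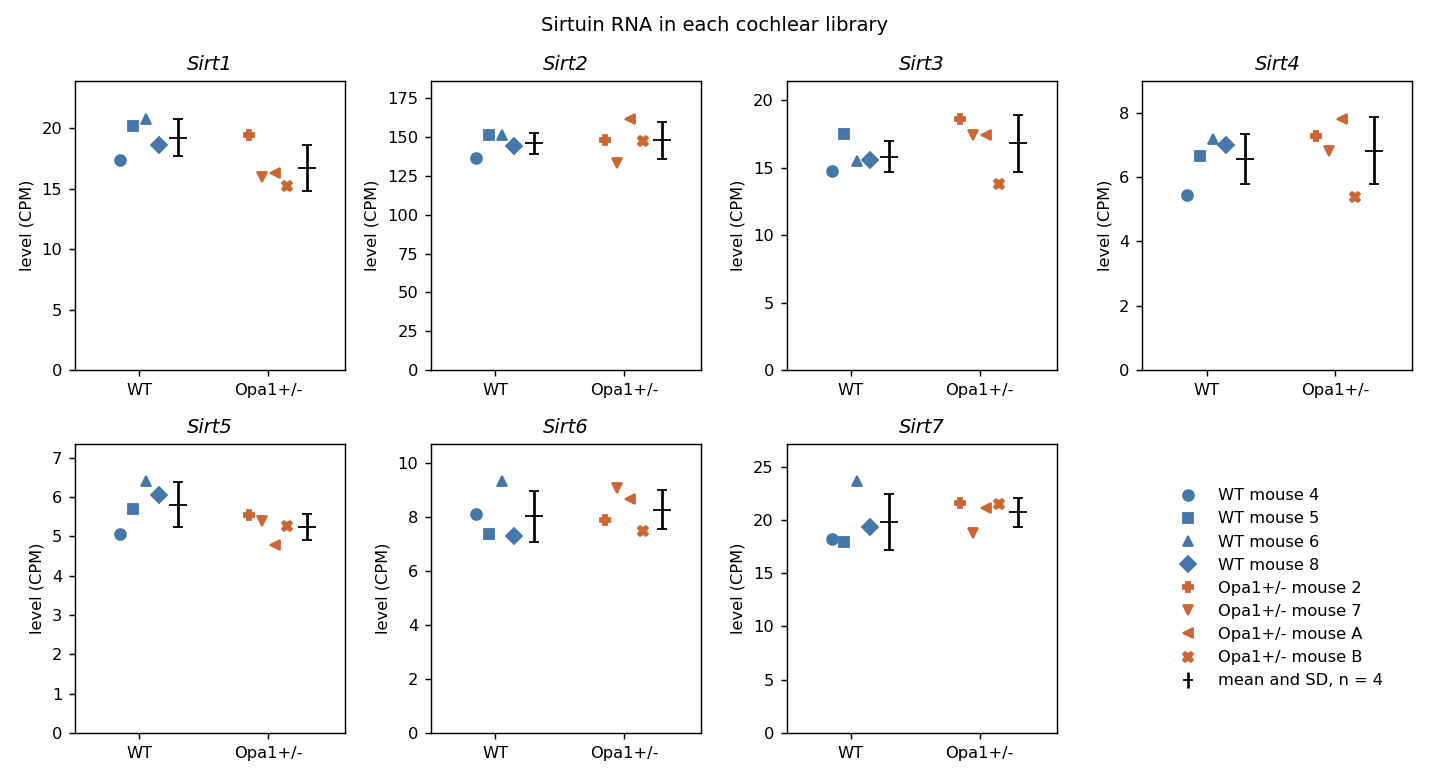
Level of each sirtuin in CPM, counts divided by the scaled library size (vertical axis from 0), in 4 WT and 4 Opa1+/- cochleae, 1 marker per mouse, with bars for mean and SD. WT and Opa1+/- mice overlap in every panel, and Opa1+/- mouse B is the lowest mouse for Sirt1, Sirt3 and Sirt4.

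Of the mitochondrial members, Sirt3 was measured with 218 to 356 counts per mouse. Its level was 14.8, 17.5, 15.5 and 15.6 CPM in WT mice 4, 5, 6 and 8, and 18.6, 17.5, 17.4 and 13.8 CPM in Opa1+/- mice 2, 7, A and B. Of the Opa1+/- mice, 1 was above all WT mice, 2 were close to the highest WT mouse, and mouse B was below all others. The means were 15.8 ± 1.16 and 16.8 ± 2.10 CPM, a ratio of 1.06. The log2 fold change was 0.087 with a standard error of 0.105 (adjusted p = 0.898, edgeR), and its 95% interval ran from 0.903-fold to 1.25-fold. An increase of Sirt3 RNA by more than 1.25-fold, or a decrease below 0.903-fold, was outside this interval, and smaller differences in either direction were inside it.

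WT mouse 4 and Opa1+/- mouse B, the highest of their groups in erythroid and marrow genes, were the lowest of their groups in Sirt3. Without both mice the log2 fold change of Sirt3 was 0.13 (adjusted p = 0.706, edgeR), and with the erythroid and marrow genes left out of the library sizes it was 0.087. These are alternatives chosen after the data were seen. Leaving out mouse B alone gave 0.17 and leaving out Opa1+/- mouse 2 alone gave 0.035, on the log2 scale, so that single mice moved the Sirt3 value by more than 1.5 times without a call in either case (adjusted p = 0.907 and 0.969, edgeR).

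The overlapping neighbours of Sirt3 bear on its counts, because the use of strand in counting was not stated. Psmd13, read from the other strand, was at 48.6 ± 3.45 CPM in WT mice and 49.5 ± 2.53 CPM in Opa1+/- mice, with a log2 fold change of 0.028 (adjusted p = 0.949, edgeR). Ric8, a chaperone of G protein alpha subunits, was at 42.2 ± 4.26 and 44.3 ± 2.56 CPM, with a log2 fold change of 0.071 (adjusted p = 0.889, edgeR). Both neighbours are more abundant than Sirt3, and neither passed the test. How many Sirt3 counts come from the shared exon bases was not tested. The nearest protein-coding genes beyond these were Bet1l, a SNARE protein of the Golgi, at 14.8 ± 0.809 and 17.4 ± 2.13 CPM, and Cox8b, a subunit of cytochrome c oxidase in muscle, at 33.9 ± 22.4 and 65.2 ± 11.9 CPM (adjusted p = 0.728 and 0.727, edgeR).

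Sirt4, a lipoamidase and ADP-ribosyltransferase that restrains glutamate dehydrogenase, had 85 to 142 counts per mouse. It was at 5.44, 6.64, 7.17 and 6.99 CPM in WT mice 4, 5, 6 and 8, and at 7.26, 6.79, 7.81 and 5.38 CPM in Opa1+/- mice 2, 7, A and B. The lowest mouse of each group was again WT mouse 4 and Opa1+/- mouse B, and the other 6 mice lay between 6.64 and 7.81 CPM. The means were 6.56 ± 0.778 and 6.81 ± 1.04 CPM, with a log2 fold change of 0.054 and a standard error of 0.146 (adjusted p = 0.956, edgeR). The 95% interval, from 0.828-fold to 1.30-fold, was the widest of the family. The sign of this difference was not stable: without WT mouse 4 the log2 fold change was -0.025 and without Opa1+/- mouse A it was -0.017.

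Sirt5, which removes succinyl, malonyl and glutaryl groups, was the least abundant member, with 77 to 123 counts per mouse. WT mice 4, 5, 6 and 8 were at 5.04, 5.70, 6.39 and 6.05 CPM, and Opa1+/- mice 2, 7, A and B at 5.55, 5.39, 4.77 and 5.25 CPM. Of the WT mice, 3 were above every Opa1+/- mouse, and WT mouse 4 was below all but 1 of them. The means were 5.80 ± 0.576 and 5.24 ± 0.334 CPM, with a log2 fold change of -0.15 and a standard error of 0.120 (adjusted p = 0.834, edgeR). The 95% interval ran from 0.750-fold to 1.09-fold. Among WT mice the coefficient of variation of Sirt5 was 9.94%, and counting error alone gives 10.03% at the mean of 99.5 counts. In Opa1+/- mice it was 6.37%.

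Of the nuclear members, Sirt1, the deacetylase of p53, Foxo factors and Pgc1a, had the lowest p of the family. Its level was 17.3, 20.2, 20.8 and 18.7 CPM in WT mice 4, 5, 6 and 8, and 19.5, 15.95, 16.3 and 15.2 CPM in Opa1+/- mice 2, 7, A and B. Of the Opa1+/- mice, 3 were below every WT mouse, and mouse 2 lay within the WT range. The means were 19.2 ± 1.55 and 16.7 ± 1.89 CPM, a ratio of 0.870. The log2 fold change was -0.20 with a standard error of 0.0976, which did not pass the threshold (adjusted p = 0.756, edgeR; exact two-sided permutation p = 0.0857, the smallest possible being 0.0286). Its 95% interval ran from 0.747-fold to 1.01-fold. Without Opa1+/- mouse 2 the log2 fold change was -0.28 with an unadjusted p of 0.0131 and an adjusted p of 0.826 in edgeR, and without WT mouse 4 it was -0.25 with an unadjusted p of 0.0339 and an adjusted p of 0.444. With Opa1+/- mice A and B both left out, it was -0.12, with no call in edgeR.

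Sirt6, which acts on histone H3 at telomeres and genes of glucose metabolism, had 118 to 180 counts per mouse. Its level was 8.10, 7.38, 9.32 and 7.28 CPM in WT mice 4, 5, 6 and 8, and 7.91, 9.06, 8.68 and 7.47 CPM in Opa1+/- mice 2, 7, A and B. The Opa1+/- values all lay within the WT range. The means were 8.02 ± 0.940 and 8.28 ± 0.722 CPM, with a log2 fold change of 0.048 and a standard error of 0.118 (adjusted p = 0.95, edgeR). The 95% interval ran from 0.861-fold to 1.24-fold. Single mice moved the log2 fold change, to 0.0012 without Opa1+/- mouse 7 and to 0.13 without WT mouse 6.

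Sirt7, the sirtuin of the nucleolus, had 321 to 395 counts per mouse. Its level was 18.2, 17.9, 23.6 and 19.3 CPM in WT mice 4, 5, 6 and 8, and 21.5, 18.7, 21.1 and 21.5 CPM in Opa1+/- mice 2, 7, A and B. Again all Opa1+/- values lay within the WT range, whose upper end was WT mouse 6. The means were 19.8 ± 2.63 and 20.7 ± 1.33 CPM, with a log2 fold change of 0.067 and a standard error of 0.0999 (adjusted p = 0.920, edgeR). The 95% interval ran from 0.897-fold to 1.22-fold. The log2 fold change was 0.16 without WT mouse 6 (adjusted p = 0.656, edgeR) and 0.023 without WT mouse 5. Sirt7 shares 124 exon bases with Mafg, a small Maf transcription factor of the same strand, at 58.0 ± 5.78 and 54.2 ± 2.38 CPM (adjusted p = 0.827, edgeR), and its counts are uncertain to that extent.

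Sirt2, a deacetylase of the cytosol that acts on alpha-tubulin and is abundant in myelinating cells, was by far the most abundant member, with 2333 to 3069 counts per mouse. Its level was 136.6, 150.9, 151.5 and 144.3 CPM in WT mice 4, 5, 6 and 8, and 148.2, 133.3, 161.7 and 147.7 CPM in Opa1+/- mice 2, 7, A and B. Both the lowest and the highest mouse were Opa1+/-. The means were 145.8 ± 6.98 and 147.7 ± 11.6 CPM, a ratio of 1.01, and the log2 fold change was 0.018 with a standard error of 0.0718 (adjusted p = 0.969, edgeR). The 95% interval, from 0.906-fold to 1.13-fold, was the narrowest of the family. The sign was not stable here either, with log2 fold changes of -0.028 without Opa1+/- mouse A, -0.012 without WT mouse 4 and -0.0037 with total counts in place of TMM. The summed level of 9 Schwann cell and myelin genes was 3309 to 4511 CPM in WT mice and 3975 to 5352 CPM in Opa1+/- mice (exact two-sided permutation p = 0.257). The median log2 fold change of these genes was 0.22, and their part in the Sirt2 level was not tested.

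Between genes, levels were compared per kilobase of annotated exon. Sirt2 stood at 29.1 CPM per kilobase over the 8 mice, in the order followed by Sirt7 at 3.93, Sirt1 at 3.37, Sirt6 at 2.93, Sirt4 at 2.79, Sirt3 at 2.74 and Sirt5 at 0.906 CPM per kilobase. The level of Sirt2 per kilobase was 7.46 ± 0.628 times that of Sirt7 and exceeded it in 8 of 8 mice. That of Sirt3 was 3.05 ± 0.434 times that of Sirt5, also in 8 of 8 mice. For the neighbours between them, the ratio fell on both sides of 1 among the mice: Sirt7 was above Sirt1 in 7 of 8 mice (ratio 1.18 ± 0.167), Sirt1 above Sirt6 in 6 (1.16 ± 0.177), Sirt6 above Sirt4 in 4 (1.06 ± 0.142) and Sirt4 above Sirt3 in 3 (1.02 ± 0.0926). Of the pairs further apart in the order, Sirt7 was above Sirt6, Sirt4 and Sirt3, and Sirt1 above Sirt3, in 8 of 8 mice, whereas Sirt1 was above Sirt4 in 7 of 8 and Sirt6 above Sirt3 in 6 of 8. Exon lengths were those of all annotated transcripts merged, which understates the level of a gene whose long exons are little used in the cochlea.

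**Figure D2:**
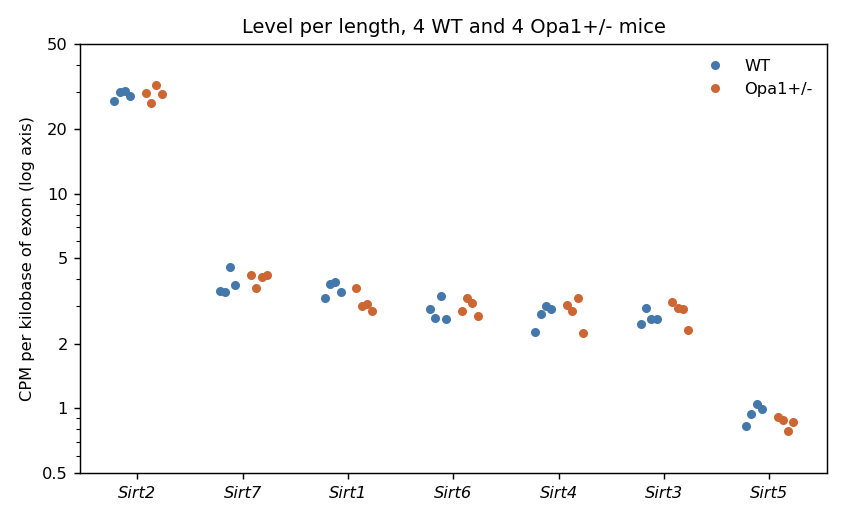
Level per kilobase of annotated exon (CPM per kilobase, log axis) of the 7 sirtuins in 4 WT and 4 Opa1+/- mice, 1 point per mouse, ordered by the mean over all mice. Sirt2 lies at about 29.1 and Sirt5 at about 0.906, and the other 5 members lie close together between 2.74 and 3.93 on average.

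Set side by side, the balance of mitochondrial and other members differed between genotypes by less than the spread between mice. The summed level of Sirt3, Sirt4 and Sirt5 was 28.2 ± 2.02 CPM in WT mice and 28.9 ± 3.07 CPM in Opa1+/- mice (n = 4 each). That of Sirt1, Sirt2, Sirt6 and Sirt7 was 192.8 ± 10.6 and 193.4 ± 12.8 CPM, of which all but 47.0 ± 4.54 and 45.7 ± 2.37 CPM was Sirt2. The mitochondrial members thus made up 12.8% ± 0.461 of all sirtuin counts in WT and 13.0% ± 1.34 in Opa1+/- mice, without correction for exon length.

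To weight the genes equally, the mean log2 CPM of the nuclear and cytosolic members was subtracted from that of the mitochondrial members in each mouse. The result was -1.70, -1.52, -1.68 and -1.50 in WT mice 4, 5, 6 and 8, and -1.53, -1.50, -1.59 and -1.73 in Opa1+/- mice 2, 7, A and B. The groups overlapped over nearly all of their range, and WT mouse 4 and Opa1+/- mouse B were again the lowest of each. The means were -1.60 ± 0.104 and -1.59 ± 0.103, so that the genotypes differed by 0.012 on the log2 scale, less than the spread between mice. The sign of this value turned when WT mouse 4, WT mouse 6, Opa1+/- mouse 2 or Opa1+/- mouse 7 was left out, with a range of -0.021 to 0.060 over single mice left out. This value describes the members and was given no test.

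The signs of the fitted differences were mixed. In Opa1+/- mice, 5 members had a positive and 2 a negative log2 fold change, with a median of 0.048, against 9506 positive, 9860 negative and a median of -0.0031 over all genes tested. The median was 0.054 for the mitochondrial and 0.033 for the other members. By size alone, without sign, the median was 0.067 for the sirtuins and 0.0993 over all genes. By mouse, WT mouse 4 was below the mean of all mice in 7 of 7 members and Opa1+/- mouse B in 5 of 7, whereas WT mouse 6 was the highest mouse in 4 members, namely Sirt1, Sirt5, Sirt6 and Sirt7. WT mouse 6 was also the highest in muscle genes, and its part in these levels was not tested.

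**Figure D3:**
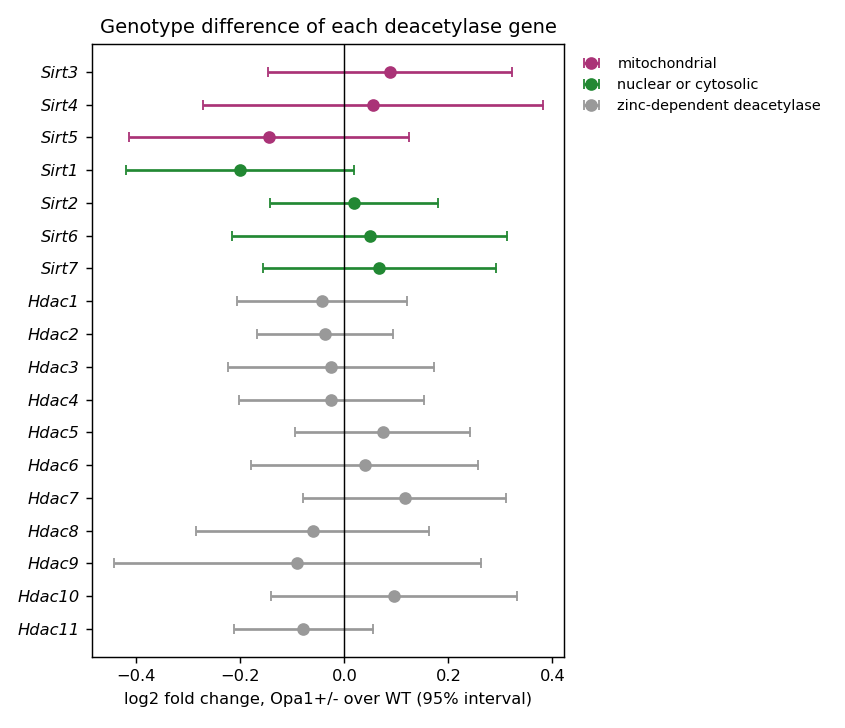
Log2 fold change, Opa1+/- over WT, of each sirtuin and of the 11 zinc-dependent histone deacetylases, with 95% intervals from edgeR (n = 4 mice per genotype). Every interval includes 0, and that of Sirt1, from -0.42 to 0.018, comes closest to leaving it out.

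The zinc-dependent histone deacetylases, Hdac1 to Hdac11, do not use NAD and were set beside the sirtuins. All 11 were tested. In either direction, 0 were called by edgeR and 0 by DESeq2, against 0.0258% and 0.119% of all genes. An unadjusted p under 0.05 was reached by 0, against 6.7% of all genes. At such shares, a list this short would hold few or no such genes. Their median log2 fold change was -0.025, within a range of -0.090 to 0.12. The lowest p belonged to Hdac7, a class IIa member, at 26.7 ± 3.27 CPM in WT mice and 28.9 ± 1.16 CPM in Opa1+/- mice, with a log2 fold change of 0.12 (adjusted p = 0.820, edgeR). Hdac11 and Hdac5 followed, with log2 fold changes of -0.079 and 0.074 (adjusted p = 0.820 and 0.870).

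The RNA of 21 genes of NAD synthesis and salvage was examined, of which 17 were tested. NAD itself was not analysed here. None was called by edgeR or DESeq2. An unadjusted p under 0.05 was reached by 1 of 17, a share near the 6.7% of all genes, and the median log2 fold change was 0.032. Nampt, the rate-limiting enzyme of salvage, was at 61.6 ± 6.25 CPM in WT mice and 60.6 ± 3.65 CPM in Opa1+/- mice. Nnmt, which methylates nicotinamide and so withdraws it from salvage, had the lowest p of the list, at 1.24 ± 0.281 and 2.11 ± 0.247 CPM. Its groups did not overlap, which held for 4.29% of all genes, and its log2 fold change of 0.76, with a standard error of 0.211, did not pass over all genes (adjusted p = 0.726, edgeR). Afmid, a formamidase of the kynurenine pathway, had a log2 fold change of 0.34, and Nmrk2, a nicotinamide riboside kinase of muscle, one of 1.499 at levels of only 0.307 ± 0.162 and 0.861 ± 0.825 CPM (adjusted p = 0.744 and 0.756, edgeR).

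Of 17 other enzymes that consume NAD, all were tested and 0 were called in either direction by edgeR or DESeq2. An unadjusted p under 0.05 was reached by 3 of 17, all lower in Opa1+/- mice, against 6.7% of all genes in either direction. The median log2 fold change was -0.094, against -0.0031 over all genes. Cd38, the main NAD glycohydrolase of many tissues, was at 13.3 ± 2.36 CPM in WT mice and 9.99 ± 0.783 CPM in Opa1+/- mice, a log2 fold change of -0.41 with a standard error of 0.134 (adjusted p = 0.726, edgeR). The tankyrases Tnks2 and Tnks, which add ADP-ribose chains to proteins of telomeres and of Wnt signalling, had log2 fold changes of -0.19 and -0.15 (adjusted p = 0.726 and 0.730). Parp1, the DNA damage sensor and the major poly-ADP-ribose polymerase, was at 56.7 ± 1.604 and 56.9 ± 1.32 CPM.

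**Figure D4:**
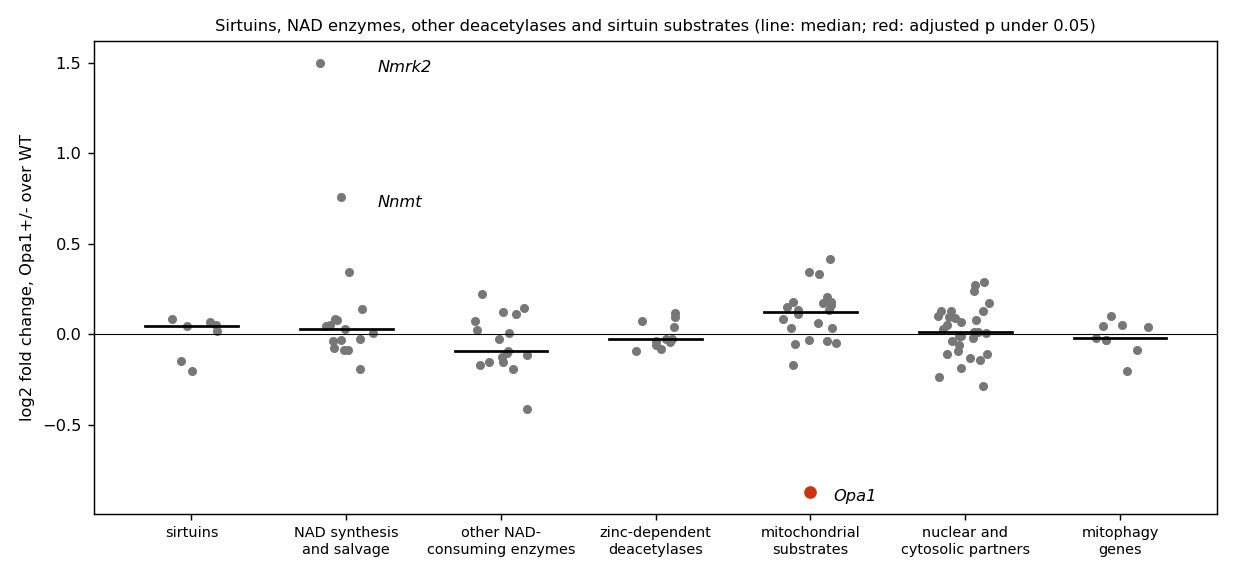
Log2 fold change, Opa1+/- over WT, of the tested genes in 7 lists, 1 point per gene, with a line at the median of each list and a red point where the adjusted p in edgeR was under 0.05. Opa1, listed as a substrate of Sirt3, is the only red point, at -0.87.

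Among 24 genes whose products are substrates or partners of the mitochondrial sirtuins, 22 were tested. The only call was Opa1 itself, the gene mutated in these mice. The median log2 fold change of the list was 0.12, with 16 positive and 6 negative values, 3 genes higher and 2 lower at an unadjusted p under 0.05, Opa1 included. Over all genes tested, 6.7% had an unadjusted p under 0.05, and 9506 values were positive and 9860 negative. Shmt2, the mitochondrial serine hydroxymethyltransferase and a target of Sirt5, was at 14.3 ± 1.40 and 16.5 ± 0.440 CPM, a log2 fold change of 0.21 (adjusted p = 0.727, edgeR). The best known substrates of Sirt3, Idh2 and the superoxide dismutase Sod2, were at 56.8 ± 9.38 and 64.0 ± 7.05 CPM and at 96.9 ± 13.1 and 99.3 ± 4.30 CPM. These are RNA levels of the substrates, and acetylation was not analysed here.

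Of 30 substrates and partners of the nuclear and cytosolic sirtuins, all tested, 0 were called by edgeR or DESeq2. An unadjusted p under 0.05 was reached by 2 of 30, a share near the 6.7% of all genes, and the median log2 fold change was 0.013. The lowest p belonged to Elk4, an ETS factor that brings Sirt7 to its targets, with a log2 fold change of -0.18 (adjusted p = 0.726, edgeR). For Elk4, every Opa1+/- mouse was below every WT mouse, and 4.29% of all genes had groups that did not overlap, in either direction. Kat2b, an acetyltransferase, had a log2 fold change of -0.24 (adjusted p = 0.755). Trp53 and Rela, classical targets of Sirt1, were at 21.9 ± 1.72 and 22.04 ± 1.99 CPM and at 37.3 ± 3.68 and 37.6 ± 1.42 CPM.

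Mitophagy and autophagy genes were set beside Sirt3, several because the study followed their proteins, others, such as Pink1 and Foxo3, for their known place in the pathway. In all, 9 were tested. None was called by edgeR or DESeq2, against 0.0258% and 0.119% of all genes, and none had an unadjusted p under 0.05, against 6.7%. With so few genes listed, few or no such genes would be found at these shares. Pink1, a kinase that marks damaged mitochondria, was at 202.6 ± 9.27 and 209.6 ± 10.1 CPM, a log2 fold change of 0.050. For Becn1, which encodes Beclin1, the levels were 82.9 ± 4.95 and 81.1 ± 3.39 CPM, a log2 fold change of -0.032. Others were Bax, Map1lc3b, Sqstm1, Foxo3, Rab7 and Bnip3, with log2 fold changes of 0.10, 0.045, 0.040, -0.021, -0.033 and -0.086.

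**Figure D5:**
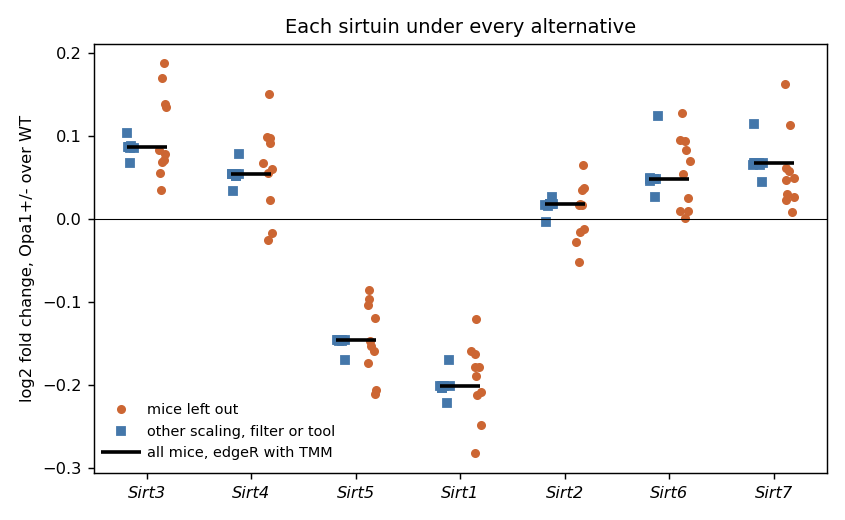
Log2 fold change, Opa1+/- over WT, of each sirtuin with all mice (black line), under other scalings, filters or tools (squares) and with mice left out (circles). Sirt3 stays between 0.035 and 0.19 and Sirt1 between -0.28 and -0.12, while Sirt2 and Sirt4 fall on both sides of 0.

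For each member, the genes whose log2 CPM over the 8 mice had the highest Pearson r with it were listed, among 11468 or 11469 other genes with a mean of at least 10 CPM. With 8 points and so many genes, high values of r arise readily, and the libraries share depth and cell content, so that these are a description. Closest to Sirt3 were Fgd5 (r = 0.960), Srebf2 (0.955) and Osbpl5 (0.953), and 22 genes had an r above 0.9. Closest to Sirt4 were Dedd2 (0.981), Chdh (0.979) and Dvl1 (0.966), with 76 genes above 0.9, and closest to Sirt5 were Rab28 (0.969), Tanc1 (0.963) and Fam168b (0.956), with 33. For Sirt1 these were Tmem260 (0.947), Cebpg (0.945) and Tmem167b (0.942), with 27 genes above 0.9. For Sirt2 they were Copz1 (0.964), Smndc1 (0.947) and Shroom2 (0.924), with 6. For Sirt6 they were Cars2 (0.969), Orai1 (0.949) and Tmem38a (0.946), with 5, and for Sirt7 Tmem204 (0.986), Sun2 (0.966) and Pkp4 (0.953), with 47. Sirt4, Sirt5 and Sirt6 had means under 10 CPM and so could not be listed for another member. Of Sirt1, Sirt2, Sirt3 and Sirt7, none was among the 3 genes closest to another sirtuin.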

How the data were processed

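RNA seq was analysed from the cochleae of 4 WT and 4 Opa1+/- mice, grouped by the labels, with the animal number as replicate. The authors prepared CORALL libraries, sequenced read pairs, trimmed adapters, used molecular identifiers against amplification bias and mapped to GRCm38 with STAR. The authors deposited 1 table of raw counts per mouse, whole numbers per gene symbol, with no normalization or filter. The counting program, its annotation and its use of strand are not given in the sources used here, and neither is which mice had RNA from which of the extraction kits that the labels name. The 15 entries with a number for a symbol, 0.112% to 0.124% of counts, were left out.

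The members and gene lists were chosen with earlier results of these data known. Genes with a mean normalized count over 10 (DESeq2 size factors) were tested, 19366 in all, with edgeR 4.0.16 (TMM, quasi-likelihood test, Benjamini-Hochberg adjustment over all genes, threshold 0.05) in R 4.3.3. The standard error of a log2 fold change is its size over the root of the F statistic, and 95% intervals use the moderated t quantile. SD is over 4 mice. For summed levels, exact permutation tests (two-sided) went through the 70 arrangements of the mice. Log2 CPM used a prior count of 2. Counting error is the Poisson error of the mean count. The fits were tested on simulated data. Named genes are the sirtuins, Opa1, the tested mitophagy genes, the called genes and the 3 with the lowest p of each other list, overlapping genes, the nearest genes to Sirt3 and the 3 genes most similar to each member. Of these, 3 are not reported here. Nampt, Parp1, Idh2, Sod2, Trp53 and Rela were named outside this rule, for their known roles and after their values were seen. All 8 mice had counts on Y-linked genes and at most 8 on Xist. Alternatives were other scalings, filters, DESeq2 1.42.0, voom in limma 3.58.1, mice left out, and, chosen after seeing the data, 2 that concern erythroid and marrow genes.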

Additional observations from a re-analysis of the deposited data

Results flagged for a closer look

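Within groups of 4 mice, 40 sets of values (the 7 sirtuins, marker sums and other checks, by genotype) were examined for a mouse far from the others, and chance marks about 1 in 20 such sets. For Sirt7, Opa1+/- mouse 7 stood apart at 18.7 CPM, while the other Opa1+/- mice lay between 21.1 and 21.5 CPM. Without this mouse the log2 fold change of Sirt7 was 0.11 (adjusted p = 0.851, edgeR). For the summed level of 10 neutrophil and marrow genes, WT mouse 4 stood apart at 1411 CPM, with the other WT mice between 434.1 and 530.5 CPM. Without WT mouse 4 the log2 fold change was -0.25 for Sirt1, 0.056 for Sirt3 and -0.21 for Sirt5.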

How the results depend on the processing

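The count of 0 sirtuins past the adjusted threshold was the same under all 20 alternatives, one of which was an adjusted threshold of 0.1. In the other 19, the number of genes called over the whole table ran from 0 to 23. With each mouse left out in turn, the log2 fold change ran from -0.28 to -0.16 for Sirt1, 0.035 to 0.17 for Sirt3, -0.21 to -0.097 for Sirt5, 0.0012 to 0.13 for Sirt6 and 0.023 to 0.16 for Sirt7. Of the single genes, Sirt2 and Sirt4 changed sign. Sirt2 ran from -0.028 to 0.065 with single mice left out, and it was -0.0037 with total counts in place of TMM, -0.012 without WT mouse 4, -0.028 without Opa1+/- mouse A, -0.051 without Opa1+/- mice A and B and -0.016 without WT mouse 4 and Opa1+/- mouse B. Sirt4 ran from -0.025 to 0.15, with -0.025 without WT mouse 4 and -0.017 without Opa1+/- mouse A. The cause was not tested. The mitochondrial members against the others differed between genotypes by -0.021 to 0.086 on the log2 scale, on both sides of 0 and within the SD of 0.104. Over all alternatives the lowest adjusted p of a sirtuin was 0.444 (Sirt1 without WT mouse 4, edgeR). The calls over all genes were 0 without WT mouse 8, without Opa1+/- mouse 2 and without either of these pairs of mice, and 23 with DESeq2, 12 without the low-count filter, 11 with robust estimation and 10 with voom, against 5 in edgeR. No paired analysis was possible because the genotypes share no animal number. A fit with sex as a covariate was planned and not run, since all 8 mice had the same pattern of Xist and Y-linked counts. Depth limits Sirt4, Sirt5 and Sirt6 most, with mean counts of 120.3, 99.5 and 146.1 per mouse.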
